A study of Mus musculus with 27 samples.

Results

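The genes that make cholesterol and fatty acids were followed in RAW264.7 cells, an established mouse macrophage line, as RNA in the cells and as RNA recovered with an antibody to HuR. The 35 genes were taken by symbol for their known role in the pathway, with earlier results of these data known. All 35 were present, each once, among the 55483 genes of the counts table. Cells of each group were treated for 6 h, either with the vehicle DMSO, with bacterial lipopolysaccharide (LPS, 1 µg/ml) together with DMSO, or with LPS together with TM7nox. TM7nox is 1 of the study's tanshinone mimics, small molecules known for disturbing the binding of RNA by HuR, and the labels give 10 µM for this class. Each treatment had 4 libraries of total RNA and 4 libraries of RNA from anti-HuR ribonucleoprotein immunoprecipitation (RIP), with 1 control IgG library that carries replicate number 3. Nothing in the labels says whether the replicates came from separate cultures, so p-values measure the spread between these samples, which may be technical. No group received TM7nox without LPS, and all groups come from 1 cell line.

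Cells make cholesterol from acetyl-CoA through mevalonate, farnesyl diphosphate, squalene and lanosterol, and they make fatty acids from the same acetyl-CoA through malonyl-CoA. The transcription factors Srebf1 and Srebf2 switch on most of these genes after the escort protein Scap carries them out of the endoplasmic reticulum, and Insig1 and Insig2 hold them back when sterols are plentiful. Macrophages are known to remodel this pathway when Toll-like receptors sense microbes. HuR is an RNA-binding protein that prefers U-rich and AU-rich stretches, many of them in 3′ UTRs, and is known for stabilising inflammatory mRNAs.

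LPS lowered 14 of the 35 RNAs (40.0%, beside 21.7% of all genes tested) and none was called higher, and the desaturase Scd2 and the elongase Elovl6 fell the most. LPS with TM7nox gave lower levels than LPS for 4 members (11.4%, beside 6.4% of all genes), among them Hmgcs1 of the mevalonate arm. With the replicate number as a block there were 12, beside 12.7% of all genes. With anti-HuR, 11 members were recovered above and 18 below their RNA level, 31.4% and 51.4% beside 37% and 33.4% of all genes, and Insig1, Sc5d and Dhcr7 led the first set. The test of a change in recovery with treatment called none of the members and hardly any other gene (0.0419% with LPS and 0.00699% with TM7nox, by edgeR without a block).

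Levels are counts per 1000000 counts of a library (CPM), scaled with trimmed mean of M-values (TMM) factors over all 27 libraries. A difference is called at a false discovery rate (FDR) under 0.05, from edgeR's quasi-likelihood F test with Benjamini-Hochberg adjustment over all genes tested. Depth ran from 2728534 to 28285856 counts in the RNA libraries, from 19816312 to 41449233 in RIP and from 8873091 to 24513902 in IgG. The TMM factors of the RIP libraries were 0.938 to 0.987 in DMSO and 0.513 to 0.671 in the 2 treatments with LPS, and the part of this gap in comparisons within RIP was not tested beyond the other scalings. All 10 macrophage markers checked stood above 5 CPM on average in RNA, and each of the 19 markers of T and B cells, fibroblasts, epithelia, hepatocytes and adipocytes stood below 1 CPM, with Epcam, Krt8 and Alb at 0. The shallowest library, RNA DMSO replicate 1, held the lowest of the 4 DMSO levels for 30 of the 35 members, against 48.1% of the 10618 genes with a mean of at least 1 CPM in RNA. RIP DMSO replicate 1 held the lowest for 21 members, against 22.5% of 11286 genes. Calls that change when the shallow library is left out are given with and without it.

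Read per kilobase of the annotated canonical transcript, the most abundant member in RNA of DMSO cells was Scd2 (ENSMUSG00000025203, chr19:44281613-44295303, +, in GRCm39), a stearoyl-CoA desaturase that makes monounsaturated fatty acids, at 65.7 ± 24.4 CPM per kb (SD, n = 4). Fads1, which desaturates polyunsaturated fatty acids, followed at 36.4 ± 5.64 CPM per kb. Elovl1, an elongase of very long chains, stood at 27.9 ± 3.53 and Msmo1, a sterol methyl oxidase, at 26.1 ± 4.23 CPM per kb, which did not differ beyond their spread. At the other end, the sterol reductase Tm7sf2 stood at 0.694 ± 0.185, farnesyl diphosphate synthase Fdps at 1.13 ± 0.291, the acetyl-CoA synthetase Acss2 at 1.56 ± 0.697 and Insig2 at 1.68 ± 0.822 CPM per kb. Fdps counts are uncertain, because 4 annotated pseudogenes (Gm3571, Gm5873, Gm7979 and Gm8163) each match between 78.6% and 81.3% of its transcript at 95% identity or more. Acat2 shares 55.4% of its transcript in the same way with Acat3, Acaca 64.3% with Gm5182 and Fdft1 35.9% with Gm6781. Smaller parts are shared by Idi1 (26.4% with Idi1-ps1, 26.3% with Idi1-ps2), Elovl6 (13.1% with Gm11295), Scd2 (11.4% with Scd1) and Hmgcs1 (9.67% with Baz1a). Scd1 and Scd2 share 4.26% and 3.92% with Gm50323.

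Recovery with anti-HuR, the difference between RIP and RNA of the same treatment on the log2 scale, split the pathway within nearly every arm. In DMSO cells, 11 members were called above their RNA level and 18 below it, with 6 not called. These were 31.4% and 51.4% of the members, beside 37% higher and 33.4% lower (70.4% in either direction) among all 14311 genes tested, and the members' median was −0.74 against 0.04 for all genes. Values are relative to the typical gene, since TMM assumes that most genes do not differ.

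Within the SREBP system, Insig1 was recovered above its RNA and Srebf1 and Scap below, while Srebf2 and Insig2 were not called. Insig1 stood at 18.7, 35.9, 43.7 and 37.8 CPM in RNA of DMSO cells (replicates 1 to 4) and at 283, 410, 548 and 452 CPM in RIP. Every RIP library lay far above every RNA library, a log2 difference of 3.72 ± 0.24 (SE; FDR = 9.09e-13). Its IgG library of DMSO cells held 28.3 CPM, inside the range of the RNA libraries. Srebf1, the factor tied to fatty acid genes, went from 21.4, 48.8, 77 and 63.5 CPM in RNA to 19.7, 21.6, 36.8 and 33.7 CPM in RIP, a difference of −0.84 ± 0.27 (FDR = 0.00664) with overlapping ranges. Srebf2, the factor tied to sterol genes, held 99.0, 106, 151 and 126 CPM in RNA and 113, 98.3, 157 and 183 CPM in RIP, at 0.30 ± 0.19 (FDR = 0.159).

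In the mevalonate arm, Acat2, the cytosolic thiolase that starts the arm, and Hmgcs1, which makes HMG-CoA, were recovered above their RNA, and the kinases Mvk and Pmvk, the decarboxylase Mvd and the isomerase Idi1 below. Hmgcs1 rose from 10.8, 22.3, 27.9 and 23.8 CPM in RNA to 56.0, 96.3, 156 and 138 CPM in RIP, a difference of 2.46 ± 0.30 (FDR = 6.54e-08). Acat2 gave 3.09 ± 0.35 (FDR = 2.53e-08), and the lowest of the arm, Mvd, gave −1.45 ± 0.29 (FDR = 8.7e-05). The ranges of RNA and RIP were separate for Hmgcs1, Acat2 and Pmvk and overlapped for Mvk, Mvd and Idi1.

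Among the 11 genes from squalene to cholesterol, the ketosteroid reductase Hsd17b7 and the enzymes Sc5d and Dhcr7, which act at the end of the pathway, were recovered above their RNA, and 6 were recovered below. Sc5d went from 15.9, 26.5, 27.1 and 23.3 CPM in RNA of DMSO cells to 190, 279, 314 and 213 CPM in RIP, at 3.51 ± 0.26 (FDR = 1.04e-11). Dhcr7, the reductase of the last step, went from 11.9, 16.2, 24.7 and 24 CPM to 139, 158, 281 and 232 CPM, at 3.47 ± 0.25 (FDR = 7.99e-12). Squalene synthase Fdft1 lay at the other end, with 18, 28.6, 30.6 and 29.6 CPM in RNA and 6.67, 7.04, 7.13 and 5.98 CPM in RIP, at −1.90 ± 0.20 (FDR = 6.39e-09). The last enzyme of the route and the one that opens it thus lay on opposite sides of their RNA, with no overlap of RIP and RNA in either. Exons of Ctsb cover 34.1% of the Fdft1 transcript on the opposite strand, and the strand setting of the counting is not given. Nsdhl (−1.76 ± 0.24), Msmo1 (−1.57 ± 0.21), Ebp (−1.56 ± 0.22), Sqle (−1.26 ± 0.22) and Lss (−0.96 ± 0.27) were also called lower, and Cyp51 (0.13 ± 0.26) and Tm7sf2 (−0.46 ± 0.44) were not called.

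The fatty acid genes divided in a similar manner. Fasn, the fatty acid synthase, fell from 167, 228, 335 and 318 CPM in RNA of DMSO cells to 59.8, 57.5, 76.3 and 91.3 CPM in RIP, at −1.78 ± 0.30 (FDR = 8.98e-06), with no overlap. Acss2 (−1.34 ± 0.36) and the acetyl-CoA carboxylase Acaca (−1.04 ± 0.25) were called lower with it, and ATP citrate lyase Acly was called higher (0.96 ± 0.21). Of the desaturases, Scd1 (1.34 ± 0.54) and Scd2 (1.23 ± 0.31) were called higher and Fads1 (−1.23 ± 0.17) and Fads2 (−0.74 ± 0.22) lower. The elongases Elovl5 (2.12 ± 0.19) and Elovl6 (1.06 ± 0.22) were called higher and Elovl1 (−1.46 ± 0.20) lower. The call of Scd1 was lost without RNA DMSO replicate 1 (FDR = 0.0923), without RNA DMSO replicate 2, and without RIP DMSO replicate 3 or 4. Stard4 was not called (−0.27 ± 0.23, FDR = 0.295), and without RNA DMSO replicate 1 it was called lower (−0.53, FDR = 0.00596).

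**Figure D1:**
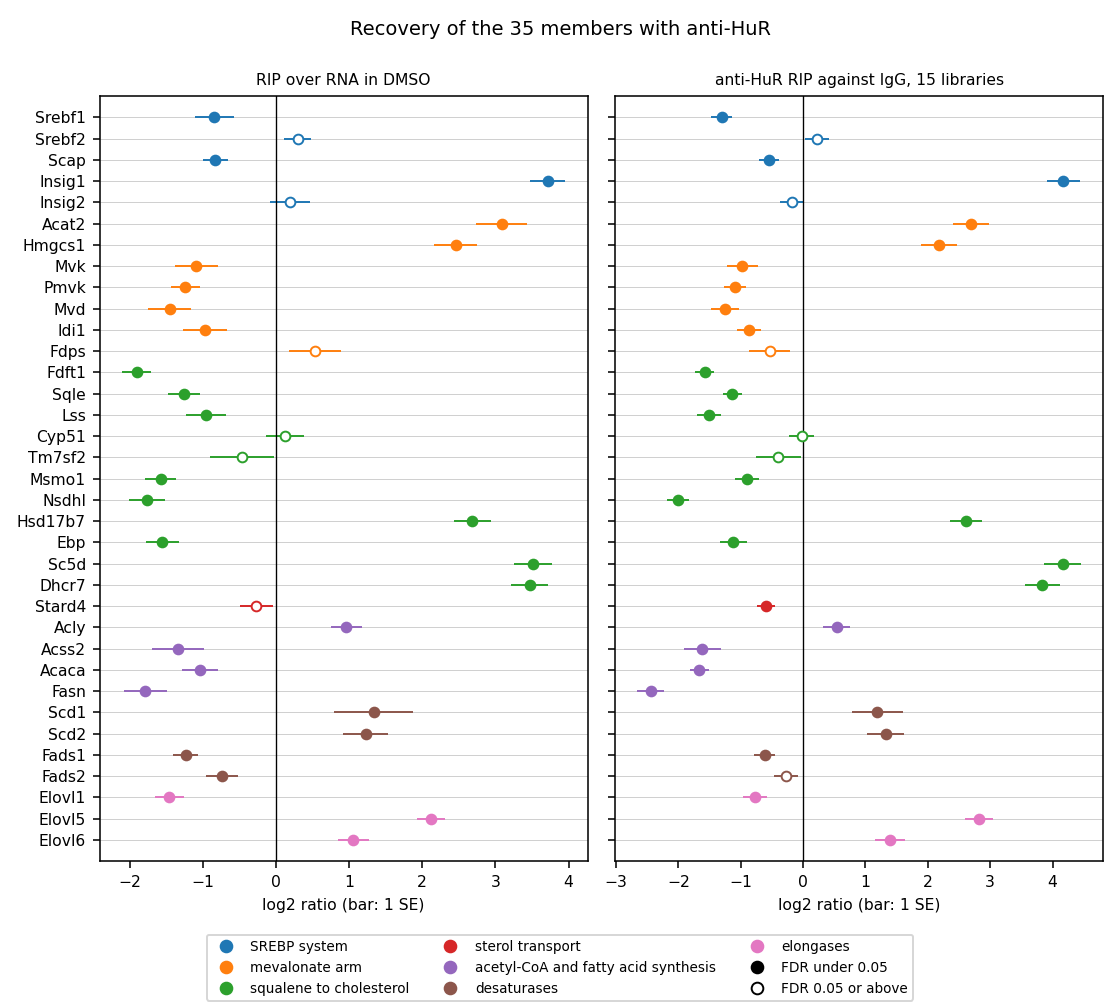
Log2 ratio of each of the 35 members (rows, coloured by role) for RIP over RNA in DMSO cells, left, and for anti-HuR against IgG over 15 libraries, right; bars are 1 SE and filled points have an FDR under 0.05. Insig1, Sc5d, Dhcr7 and Acat2 lie farthest right in the left panel, above 3, and Fdft1, Fasn and Nsdhl farthest left, below −1.7.

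The anti-HuR libraries were also compared with the control antibody, a comparison that shares the RIP libraries with that over RNA. Over the 12 RIP and 3 IgG libraries, with treatment as a covariate, 11 members were called higher with anti-HuR and 18 lower, beside 33.8% and 34.2% (68.1% in either direction) of the 14973 genes tested. Insig1 (4.17 ± 0.26), Sc5d (4.16 ± 0.30), Dhcr7 (3.84 ± 0.29), Elovl5 (2.82 ± 0.22), Acat2 (2.69 ± 0.29), Hsd17b7 (2.61 ± 0.25) and Hmgcs1 (2.19 ± 0.29) were the highest. Fasn was the lowest at −2.45 ± 0.21 (FDR = 4.93e-09), with 403, 301 and 191 CPM in the IgG libraries of DMSO, LPS and LPS+TM7nox against at most 91.3 CPM in any RIP library. This test rests on 1 IgG library a treatment, and 25 of the 29 calls held in each of the 15 fits that leave out 1 library. The calls of Scap, Acly, Scd1 and Fads1 were lost without the IgG library of DMSO cells, those of Acly and Scd1 also without that of LPS+TM7nox, that of Scap also without that of LPS, and that of Acly also without RIP LPS replicate 3.

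**Figure D2:**
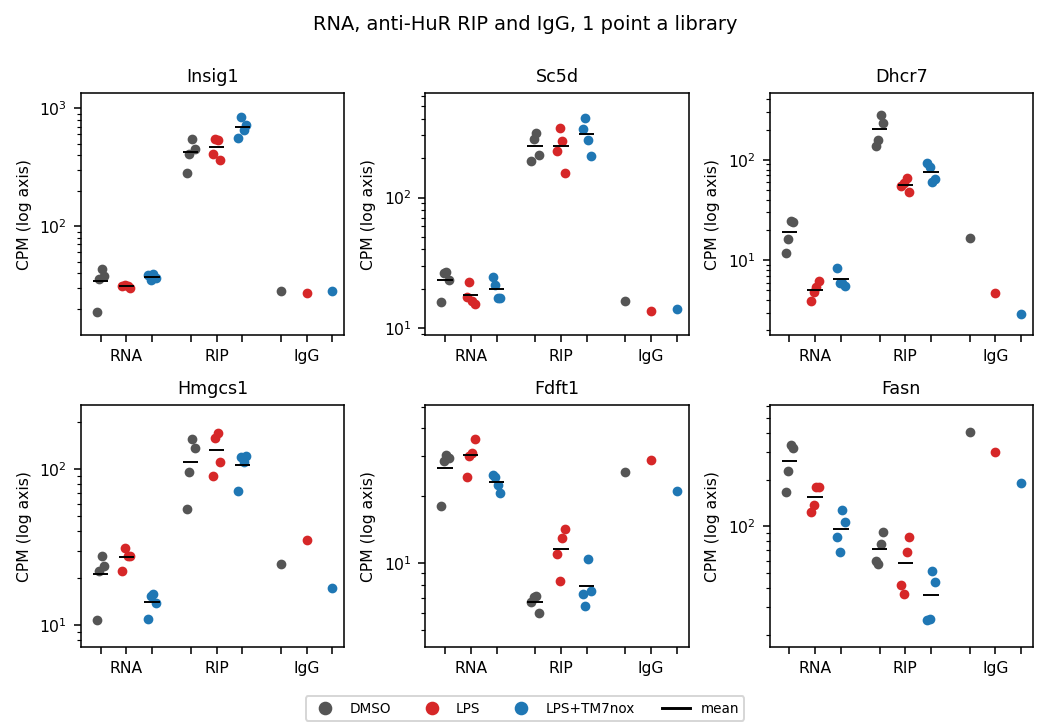
CPM (log axis) of 6 members in each RNA, anti-HuR RIP and IgG library, coloured by treatment, with lines at the mean of 4 libraries. Insig1, Sc5d, Dhcr7 and Hmgcs1 sit higher in RIP than in RNA or IgG, and Fdft1 and Fasn sit lower.

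The 3′ UTRs of the canonical transcripts were read for their most T-rich stretch of 30 bases (T in the genome is U in the RNA), because U-rich stretches are the kind of sequence HuR is known to prefer. The stretches of 6 members are printed 5′ to 3′ on the gene's strand, from GRCm39, with runs of 4 or more T in capitals. They were chosen to show 4 members with rich stretches and high recovery, then the 2 members with the lowest recovery. Msmo1 and Elovl6 hold 25 T each with lower recovery (−1.57 and 1.06) and are not printed.
Acat2: TTTTTTgTTTTTTTTgTTTTTctttgTTTT
Insig1: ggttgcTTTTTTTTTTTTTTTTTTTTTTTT
Dhcr7: TTTTTTgtttctttgtttgTTTTTgTTTTT
Hmgcs1: tccTTTTTTTTTTTTTTTTTTTTTTTgcat
Fasn: tcgtttctccattaaattctcatatttatt
Fdft1: tggaTTTTgacttcccttgTTTTTcctcct

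These stretches lie in the 3′ UTR at chr17:13162445-13162474 (−) for Acat2, chr5:28283143-28283172 (+) for Insig1, chr7:143401751-143401780 (+) for Dhcr7 and chr13:120169953-120169982 (+) for Hmgcs1. For Fasn and Fdft1 they are at chr11:120698354-120698383 (−) and chr14:63384112-63384141 (−). Acat2 and Insig1 hold 26 T of 30, Dhcr7 and Hmgcs1 hold 25, and Fasn and Fdft1 hold 16. Insig1 and Hmgcs1 carry 1 unbroken run each, while those of Acat2 and Dhcr7 are broken by single bases or by short spacers.

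Across the 35 members, the T count of the richest stretch and the recovery in DMSO cells had a Spearman correlation of 0.715, given as a description over genes that share the same libraries. The correlation of recovery with the percentage of T in the whole 3′ UTR was 0.428 and with its length 0.3, and the T count of the stretch itself correlated with length at 0.536. At a split of 20 T, chosen after the values were seen, 13 members were at or above it and 11 of them were called higher over RNA, with Msmo1 called lower and Cyp51 not called. Among all genes at or above the split, 58.9% were called higher and 17.6% lower. The 22 members below 20 T held none called higher and 17 called lower, beside 13.4% and 53.1% of all genes below it. Longer 3′ UTRs have more chances of a rich stretch, and the part of length in this pattern was not tested. The AU-rich motif ATTTA was counted as well, and its relation to recovery was not tested. The highest counts were 14 in Hsd17b7, called higher, 11 in Stard4, not called, and 8 in Elovl6, called higher. Of the members with 6, Idi1 was called lower and Sc5d, Scd2 and Elovl5 higher. Acat2 held 2 and Dhcr7 held 1, and both were called higher.

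The members followed the rest of the transcriptome here. Among 10991 coding genes with a 3′ UTR of at least 50 bases, the 4473 with a stretch of 20 T or more had a median log2 recovery of 1.02, and the 6518 others −0.69. At 25 T or more the median was 2.57 over 1037 genes (9.43%), with a median 3′ UTR of 2717 bases, against −0.32 over the 9954 others, with a median of 1241 bases. Among the 7 members with 25 T or more, 5 had a recovery above 2, the exceptions being Elovl6 and Msmo1, and 60.6% of the 1037 genes did. Msmo1, with 25 T in its richest stretch, was recovered at −1.57 and held 54.5, 79.3, 74.7 and 64.7 CPM in RNA against 22.0, 24.2, 23.3 and 15.8 CPM in RIP. A T-rich stretch is a feature of the annotated sequence, and whether HuR binds it, or whether these cells use the annotated 3′ end, is not measured here.

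**Figure D3:**
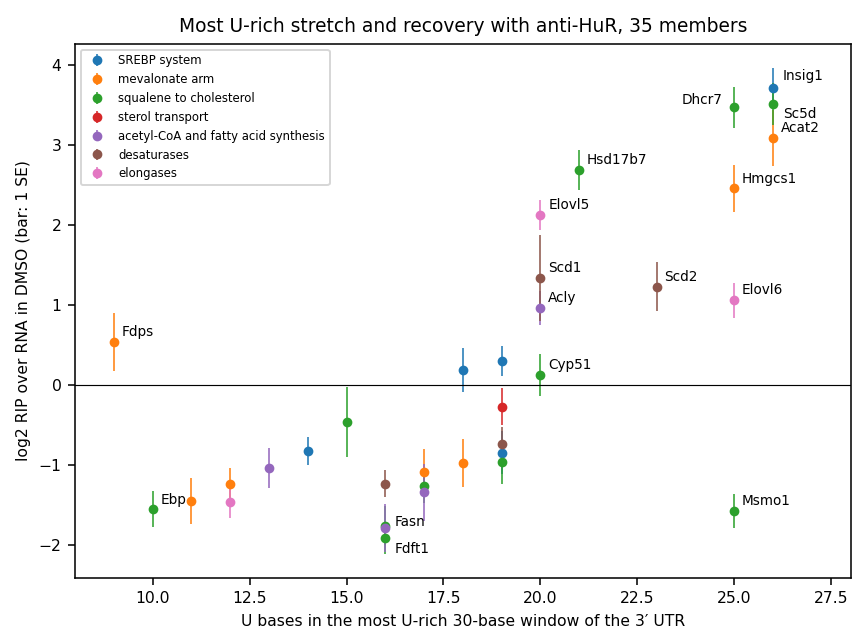
T bases (U in the RNA) in the most T-rich 30-base stretch of the 3′ UTR (x axis) against log2 RIP over RNA in DMSO cells (y axis; bars 1 SE) for the 35 members, coloured by role. The members at 26 bases lie above 3 and those under 20 bases lie at or below 0.54, with Msmo1 at 25 bases and −1.57 standing apart.

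LPS lowered much of the pathway in total RNA. Of the 35 members, 14 were called lower and none higher, 40.0% lower beside 21.7% of the 12369 genes tested, and 20.2% of all genes were called higher (42% in either direction). The members' median was −0.44 against −0.04 for all genes. In these bulk samples fewer cells carrying an RNA and less RNA per cell cannot be told apart. For the count of none higher, 17 members had an unadjusted p under 0.05, all of them lower, and DESeq2 called 13 lower and none higher (beside 21.9% and 23.2% of all genes). With the replicate number as a block Acaca, Sc5d and Scd1 were added (27.2% of all genes lower). Leaving out the shallow RNA DMSO replicate 1 gave 20 lower and none higher (22.9% and 21.0% of all genes), and leaving out RNA DMSO replicate 3 gave 9 lower (18.3% of all genes).

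Of the 7 desaturases and elongases 5 were called lower, and Scd2 and Elovl6 had the largest falls of all members. Scd2 stood at 216, 275, 483 and 460 CPM in DMSO (replicates 1 to 4), at 27.4, 36.5, 32.0 and 34.8 CPM with LPS, and at 60.2, 48.4, 35.2 and 30.8 CPM with LPS+TM7nox. Its LPS and DMSO ranges were far apart, an 11.2-fold lower level with LPS (log2 difference −3.48 ± 0.27, FDR = 2.32e-07). Elovl6, which elongates palmitate, stood at 23.1, 22.8, 31.3 and 29.3 CPM in DMSO, at 3.72, 4.61, 3.61 and 4.52 CPM with LPS, and at 1.70, 2.09, 1.58 and 2.00 CPM with LPS+TM7nox. The 3 treatments did not overlap, and LPS against DMSO was 6.62-fold lower (−2.73 ± 0.17, FDR = 1.96e-08). Elovl5, which elongates polyunsaturated chains, went from 47.1, 57.6, 60.7 and 55.5 CPM to 24.6, 25.3, 18.1 and 18.9 CPM, 2.6-fold lower (−1.38 ± 0.15, FDR = 5.67e-06) with no overlap. Fads1 went from 102, 132, 150 and 132 CPM to 66.1, 63.0, 67.7 and 62.4 CPM, 2.04-fold lower (−1.03 ± 0.14, FDR = 5.94e-05), again with no overlap. Its partner in polyunsaturated synthesis, Fads2, fell by 0.98 ± 0.22 (FDR = 0.00257).

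Scd1 was not called (−1.16 ± 0.51, FDR = 0.0855). It held 12.9, 48.7, 96.0 and 92.2 CPM in DMSO and 11.2, 22.3, 39.7 and 42.1 CPM with LPS, so that each replicate number was lower with LPS while the groups overlapped widely. With the replicate number as a block its value was −1.06 (FDR = 0.000137), and without RNA DMSO replicate 1 it was −1.47 (FDR = 0.0137). Elovl1 was not called either (−0.22 ± 0.14, FDR = 0.255).

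In the sterol branch, LPS lowered 7 of 19 genes from the thiolase step to sterol transport. Dhcr7 changed most, from 11.9, 16.2, 24.7 and 24 CPM in DMSO to 3.89, 4.83, 5.46 and 6.21 CPM with LPS, with no overlap and a 3.88-fold lower level (−1.96 ± 0.23, FDR = 1.18e-05). Acat2 (−0.94 ± 0.33), Mvd (−0.93 ± 0.29) and Pmvk (−0.44 ± 0.17) fell in the mevalonate arm. Squalene epoxidase Sqle (−0.71 ± 0.21), the isomerase Ebp (−0.43 ± 0.15) and the sterol carrier Stard4 (−0.92 ± 0.23) fell as well. The other 12 were not called, with log2 differences from −0.53 for Fdps, −0.49 for Cyp51, −0.42 for Sc5d and −0.39 for Mvk to 0.31 for Hmgcs1. Without RNA DMSO replicate 1, Cyp51 (−0.71, FDR = 0.00134), Lss (−0.49, FDR = 0.0187), Sc5d (−0.53, FDR = 0.024) and Mvk (−0.52, FDR = 0.0386) were called lower, and Pmvk was not (FDR = 0.0583). Hmgcs1 stood at 10.8, 22.3, 27.9 and 23.8 CPM in DMSO and at 22.3, 31.3, 27.6 and 27.7 CPM with LPS.

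Of the genes that supply and polymerise acetyl-CoA, Acss2 and Fasn fell and Acly and Acaca were not called. Fasn held 167, 228, 335 and 318 CPM in DMSO and 124, 136, 180 and 178 CPM with LPS, 1.73-fold lower (−0.79 ± 0.22, FDR = 0.0109), and only DMSO replicate 1 lay within the LPS range. Acss2 held 7.42, 2.34, 4.73 and 4.27 CPM in DMSO and 1.24, 1.80, 2.61 and 2.78 CPM with LPS, 2.19-fold lower (−1.13 ± 0.36, FDR = 0.021), from as few as 29 counts in a library and with overlap at DMSO replicate 2. Acly stood at 89.9, 96.3, 116 and 128 CPM in DMSO and at 110, 106, 129 and 135 CPM with LPS (0.13 ± 0.14, FDR = 0.486). The calls of Pmvk, Mvd, Sqle, Ebp, Acat2 and Acss2 were each lost in at least 1 of the 8 fits that leave out a single RNA library of these groups, with an FDR of at most 0.125, while 8 of the 14 members were called in all 8.

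The SREBP system itself was not called in RNA with LPS: 0 of 5 by edgeR, 0 of 5 at an unadjusted p under 0.05 and none by DESeq2. Srebf1 stood at 21.4, 48.8, 77 and 63.5 CPM in DMSO and at 33.8, 35.9, 42.6 and 40.0 CPM with LPS (−0.51 ± 0.25, FDR = 0.121). The DMSO range enclosed the LPS range because of replicate 1, and without that library Srebf1 was called lower (−0.74, FDR = 0.00111), as was Insig1 (−0.35, FDR = 0.0139). Srebf2 was at 112, 120, 136 and 126 CPM with LPS (0.00 ± 0.13), Scap at 30.1, 22.6, 24.4 and 22.0 CPM (−0.23 ± 0.15) and Insig2 at 4.49, 6.12, 6.97 and 6.05 CPM (0.22 ± 0.28), and their FDR lay between 0.229 and 0.986. Insig2 of DMSO replicate 1 rested on 6 counts.

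**Figure D4:**
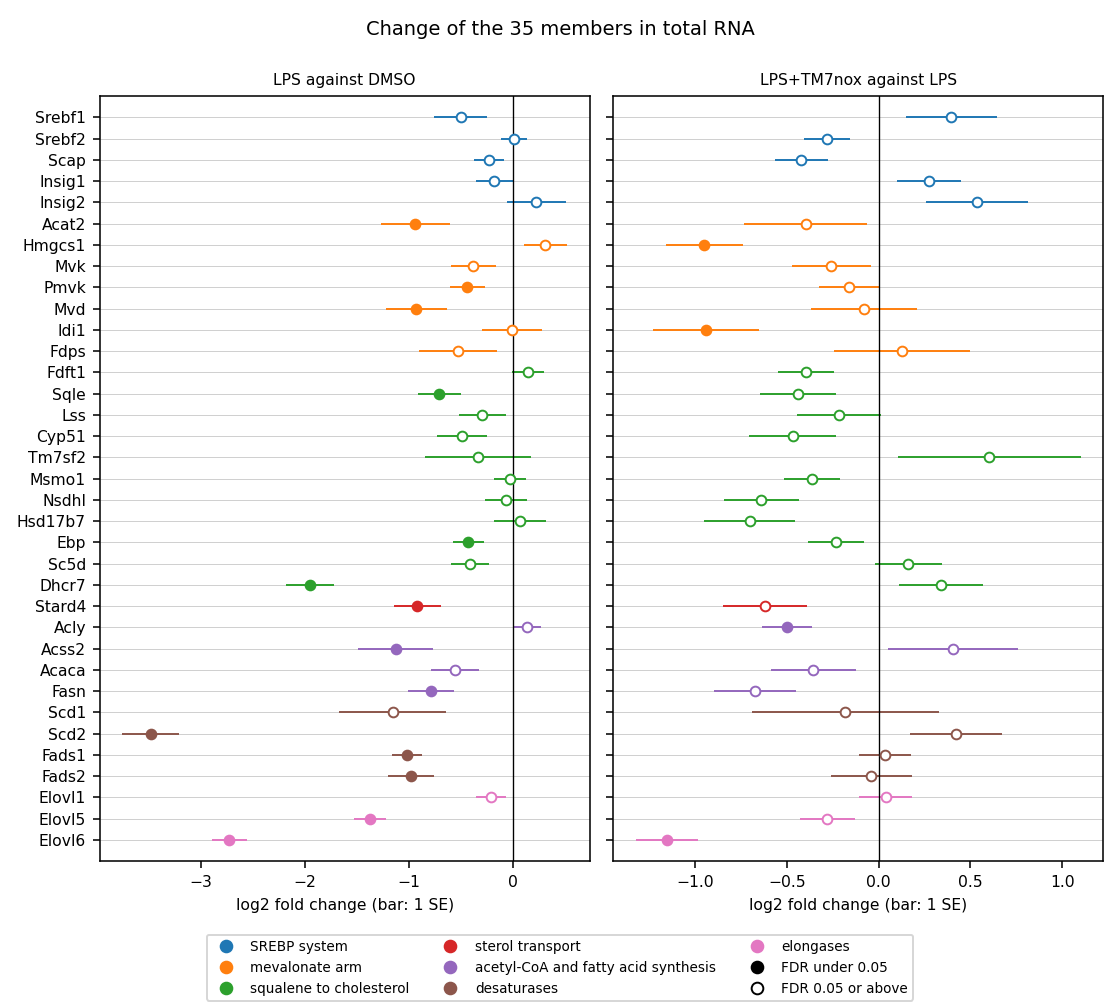
Log2 fold change of each of the 35 members (rows, coloured by role) in total RNA for LPS against DMSO, left, and LPS+TM7nox against LPS, right; bars are 1 SE and filled points have an FDR under 0.05. On the left Scd2, Elovl6, Dhcr7 and Elovl5 lie lowest and no filled point lies above 0, and on the right the filled points are Elovl6, Hmgcs1, Idi1 and Acly, all below 0.

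With TM7nox added to LPS, a few members were lower than with LPS, of which LPS had lowered Elovl6. In RNA, LPS+TM7nox against LPS called 4 of 35 lower (11.4%, beside 6.4% of all genes tested) and none higher (beside 7.37%), with a median of −0.26 against 0.00 for all genes. At an unadjusted p under 0.05 there were 12 members, all lower, and DESeq2 called 10 lower and none higher (beside 9.43% and 9.06% of all genes). The replicate numbers pair the samples, and with the replicate number as a block 12 were called lower, the 4 and Scap, Srebf2, Msmo1, Nsdhl, Hsd17b7, Stard4, Acaca and Fasn, beside 12.7% of all genes lower in that fit. The count was 2 without RNA LPS+TM7nox replicate 2 (5.34% of all genes lower), without RNA LPS replicate 3 (5.13%) or without RNA LPS replicate 4 (4.88%). Replicates 1 and 2 alone called none (0.561% of all genes lower) and replicates 3 and 4 alone called 18, of which 16 were lower (13.5% of all genes lower and 14.3% higher).

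Elovl6 fell again, from 3.72, 4.61, 3.61 and 4.52 CPM with LPS to 1.70, 2.09, 1.58 and 2.00 CPM with LPS+TM7nox, 2.23-fold lower (−1.16 ± 0.17, FDR = 0.000517). Hmgcs1 went from 22.3, 31.3, 27.6 and 27.7 CPM to 11, 15.4, 15.9 and 13.8 CPM, 1.93-fold lower (−0.95 ± 0.21, FDR = 0.00829). Neither gene's groups overlapped, and both calls held in each of the 8 fits that leave out 1 library. Idi1, which interconverts the isoprenoid building blocks, went from 8.72, 15.1, 14.5 and 17.6 CPM to 5.44, 7.60, 7.72 and 8.24 CPM, 1.92-fold lower (−0.94 ± 0.29, FDR = 0.0451). Acly went from 110, 106, 129 and 135 CPM to 76.8, 73.5, 99.2 and 89.6 CPM, 1.42-fold lower (−0.50 ± 0.14, FDR = 0.0239). Their groups did not overlap either, but Idi1 was called in 1 of the 8 single-library omissions (without RNA LPS replicate 1) and Acly in 4, with an FDR of at most 0.127 and 0.0771.

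Fasn reached 84.9, 67.9, 128 and 106 CPM with LPS+TM7nox, where only replicate 3 lay inside the LPS range, and was not called without the block (−0.67 ± 0.22, FDR = 0.0619; −0.69 and FDR = 0.000495 with it). Scap stood at 19.3, 16.8, 19.8 and 17.9 CPM, below every LPS library (−0.42 ± 0.15, FDR = 0.0728; FDR = 0.0252 with the block). Of the 11 genes from squalene to cholesterol none was called by edgeR without the block, 4 had an unadjusted p under 0.05, and the values ran from −0.70 for Hsd17b7 to 0.60 for Tm7sf2. The 4 desaturases had values between −0.18 and 0.42, with Scd2 at 0.42 ± 0.25 (FDR = 0.323).

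**Figure D5:**
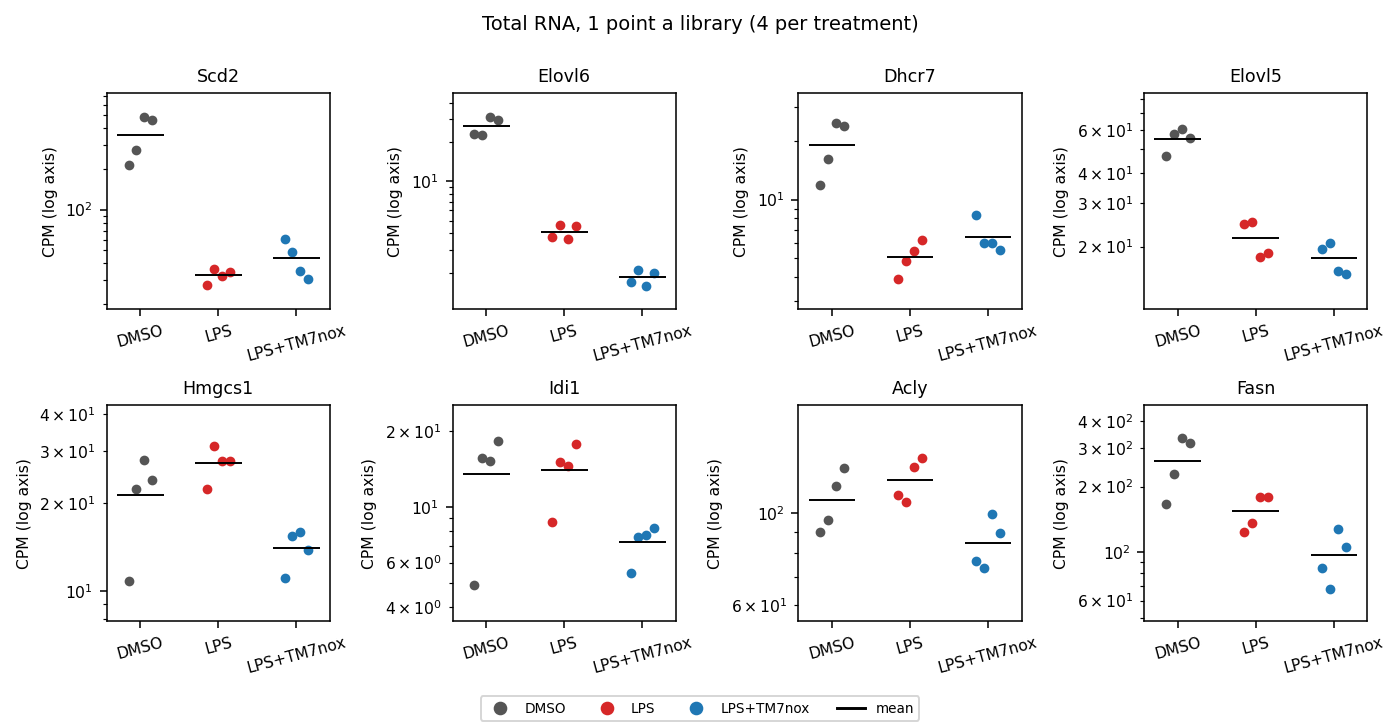
CPM (log axis) of 8 members in the 4 RNA libraries of each treatment, 1 point a library, with lines at the means. Scd2, Elovl6, Dhcr7 and Elovl5 drop from DMSO to LPS without overlap, and Hmgcs1, Idi1, Acly and Elovl6 are lower with LPS+TM7nox than with LPS in every library.

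Against DMSO, LPS+TM7nox called 23 of 35 members lower (65.7%, beside 23.6% of all genes) and 1 higher (beside 23.7%). This comparison shares its samples with the other 2, so its values are given side by side only. The lowest were Elovl6 (−3.88 ± 0.18), Scd2 (−3.06 ± 0.27), Elovl5 (−1.66 ± 0.15), Dhcr7 (−1.62 ± 0.23), Stard4 (−1.54 ± 0.23) and Fasn (−1.47 ± 0.23). All 4 desaturases and 6 of 7 mevalonate genes were called lower, the exception being Fdps (−0.40 ± 0.37, FDR = 0.402). Of the 24 calls, 17 held in all 8 fits that leave out 1 library, while Scd1 was called in 1, Msmo1 in 2, Acly in 3, Hmgcs1 and Mvk in 4 each and Idi1 in 6. The member called higher was Insig2, at 9.52, 7.30, 8.92 and 8.50 CPM with LPS+TM7nox against 1.27, 5.74, 5.66 and 6.11 CPM in DMSO (0.76 ± 0.28, FDR = 0.0406). Without DMSO replicate 1 the value for Insig2 was 0.55 (FDR = 0.0159), and its call was lost in 5 of the 8 single-library omissions and with upper-quartile scaling (FDR = 0.069). Without DMSO replicate 1, Lss (−0.71, FDR = 0.00179), Hsd17b7 (−0.78, FDR = 0.0153), Fdft1 (−0.37, FDR = 0.0269) and Srebf2 (−0.34, FDR = 0.0388) were called lower as well. The count of members was 28 (1 higher) without that library (24.5% of all genes lower) and 4 with replicates 1 and 2 alone (7.48% of all genes lower). With the block Hsd17b7 (FDR = 0.0179) and Srebf2 (FDR = 0.0214) were called lower too.

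In the RNA recovered with anti-HuR, taken by itself, LPS lowered 6 of the 14 members called lower in total RNA: Scd2, Elovl6, Dhcr7, Elovl5, Acat2 and Stard4. These were 42.9% of the members called lower in RNA and 75% of those called lower in RIP, beside 65.8% and 61.3% for all genes. In RIP, LPS against DMSO called 8 of 35 members lower (22.9%, beside 21.2% of the 13614 genes tested) and 1 higher (2.86%, beside 23.5%; 44.7% of all genes in either direction), with a median of −0.10 against 0.00. The share called lower is near that of all genes. With the replicate number as a block 11 were lower and 4 higher, beside 28.6% and 30.7% of all genes in that fit.

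Scd2 stood at 368, 581, 1046 and 1159 CPM in RIP of DMSO cells and at 49.3, 84.8, 57.3 and 64.0 CPM with LPS, 12.5-fold lower (−3.64 ± 0.33, FDR = 3.16e-07). Elovl6 went from 30.6, 40.4, 72.0 and 64.5 CPM to 7.12, 10.7, 7.66 and 6.2 CPM, 6.61-fold lower (−2.72 ± 0.25, FDR = 3.32e-07). Dhcr7 went from 139, 158, 281 and 232 CPM to 54.4, 58.5, 65.9 and 48.4 CPM, 3.6-fold lower (−1.85 ± 0.22, FDR = 7.21e-06). In all 3 the treatments were separate, and the fold changes lay close to those in RNA. Elovl5 (−1.50 ± 0.21), Fdps (−1.58 ± 0.37), Scd1 (−1.21 ± 0.45), Acat2 (−0.90 ± 0.27) and Stard4 (−0.80 ± 0.17) were the other members called lower, Fdps from at most 2.56 CPM in a library. Scd1 was called in only 4 of the 8 fits that leave out 1 library (FDR at most 0.1). Members called lower in RNA that were not called in RIP included Acss2 (−0.46 ± 0.37, FDR = 0.332), Fads1 (−0.18 ± 0.18, FDR = 0.429) and Mvd (−0.15 ± 0.26, FDR = 0.656).

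Fdft1 was the member called higher in RIP with LPS. It stood at 6.67, 7.04, 7.13 and 5.98 CPM in DMSO and at 11, 8.30, 12.9 and 14.2 CPM with LPS, without overlap (0.77 ± 0.19, FDR = 0.00439), and its RNA was not called (0.14 ± 0.15, FDR = 0.515). Exons of Ctsb, the lysosomal protease cathepsin B, cover 34.1% of the Fdft1 transcript on the opposite strand. Whether the counting used strand is not stated in any source at hand, so reads of the 2 genes may not be told apart in that stretch. The same limit holds for exons on the opposite strand over 28.6% of Cyp51, 19.8% of Scap, 18.6% of Fads1, 16.7% of Sqle, 16.1% of Acat2, 15.5% of Hmgcs1, 12.8% of Mvd, 12.6% of Nsdhl and 10.3% of Acss2.

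TM7nox with LPS against LPS in RIP called 7 members lower (20.0%, beside 7.61% of all genes) and none higher (beside 8.64%). At an unadjusted p under 0.05 there were 15, of which Insig1 and Scd2 were higher. DESeq2 also called 7 lower and none higher (beside 10.1% and 10.8% of all genes). No filter on low counts gave 6 lower and 1 higher (beside 3.18% and 3.07% of the 36534 genes then tested). Ebp stood at 7.91, 5.04, 6.83 and 9.21 CPM with LPS and at 4.37, 3.25, 6.51 and 2.25 CPM with LPS+TM7nox, 1.8-fold lower (−0.85 ± 0.27, FDR = 0.0437), and replicate 3 overlapped. Elovl6 went from 7.12, 10.7, 7.66 and 6.2 CPM to 4.63, 4.47, 5.31 and 4.32 CPM (−0.80 ± 0.25, FDR = 0.0394), and Idi1 from 8.32, 8.14, 9.78 and 9.04 CPM to 5.56, 4.27, 7.59 and 3.33 CPM (−0.80 ± 0.24, FDR = 0.0312), both without overlap. Stard4 (−0.76 ± 0.17, FDR = 0.00677) was the only one of the 7 called in all 8 single-library omissions. Fdft1 (−0.60 ± 0.19), Scap (−0.59 ± 0.18) and Sqle (−0.56 ± 0.18) were the others. The count was 1 without RIP LPS replicate 1, RIP LPS+TM7nox replicate 2 or RIP LPS+TM7nox replicate 4, and 2 without RIP LPS replicate 3 or 4, with between 4.7% and 6.01% of all genes lower in these fits. With the block it was 16, of which Insig1 and Scd2 were higher, beside 17.0% of all genes lower and 16.6% higher in that fit.

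Insig1 in RIP stood at 413, 544, 539 and 365 CPM with LPS and at 562, 850, 656 and 728 CPM with LPS+TM7nox, above every LPS library (0.55 ± 0.21, FDR = 0.0924; FDR = 0.0157 with the block). Against DMSO it was the single member called higher (0.66 ± 0.21, FDR = 0.0178), beside 14 called lower (40.0%, beside 23.1% of all genes; 25.1% of all genes were higher). In RNA Insig1 stood at 38.2, 35, 38.9 and 36.6 CPM with LPS+TM7nox against 30.9, 31.8, 30.9 and 29.7 CPM with LPS, without overlap and not called (0.27 ± 0.17, FDR = 0.361). The call in RIP against DMSO was lost without RIP DMSO replicate 1, RIP DMSO replicate 2 or RIP LPS+TM7nox replicate 2 (FDR at most 0.0826) and with upper-quartile scaling. With the block Acly was called higher as well, and Acaca, Ebp and Hsd17b7 lower.

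Insig1, Sc5d and Dhcr7 led the recovery over RNA in each treatment. With LPS, 10 members were called above RNA and 15 below (beside 32.9% and 30.8% of all genes, 63.7% in either direction), and with LPS+TM7nox 12 and 17 (beside 35.2% and 34.8%, 69.9% in either direction). Scd1 was not called with LPS (1.19 ± 0.54, FDR = 0.0576; FDR = 1.3e-06 with the block), and Srebf2 was called above RNA with LPS+TM7nox (0.54 ± 0.19, FDR = 0.0139). With the block Acss2 and Idi1 were called lower and Srebf2 higher with LPS, and Insig2 lower with LPS+TM7nox. In LPS, scaling with relative log expression (RLE) factors gave 12 above and 11 below, 52.2% of the calls above against 40.0% with TMM, and DESeq2 gave 12 and 12. Over all genes the share of calls above was 58.4% with RLE and 58.1% with DESeq2, against 51.7% with TMM. Insig1 had a log2 recovery of 3.72, 3.92 and 4.21 in DMSO, LPS and LPS+TM7nox, Sc5d of 3.51, 3.80 and 3.92, and Dhcr7 of 3.47, 3.47 and 3.55. Fdft1 had −1.90, −1.39 and −1.56 in the same order and Fasn −1.78, −1.42 and −1.46. With RLE scaling the median of all genes moved from 0.04 to 0.19 in DMSO, from −0.06 to 0.11 in LPS and from −0.09 to 0.13 in LPS+TM7nox, so values near 0 depend on the scaling.

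The test of the change itself, the interaction of assay and treatment, called none of the 35 members for LPS against DMSO (beside 0.0419% of all genes, 0.014% higher and 0.028% lower) and none for LPS+TM7nox against LPS (beside 0.00699%). By DESeq2 there were none in either, beside 0.238% of all genes higher and 0.224% lower for LPS, and 0.014% and 0.00699% for TM7nox. With the replicate number as a block there were none either, beside 0.119% higher and 0.231% lower for LPS. In edgeR without the block, 2 members in each had an unadjusted p under 0.05. For LPS these were Fads1, whose recovery moved by 0.74 ± 0.24 (FDR = 0.451), and Fdps (−1.14 ± 0.53, FDR = 0.661). For TM7nox they were Acly (0.66 ± 0.30, FDR = 0.871) and Elovl1 (−0.57 ± 0.28, FDR = 0.871). Across the members the changes ran from −1.14 to 0.74 for LPS and from −0.60 to 0.66 for TM7nox. A miss of the threshold does not show that recovery stayed the same.

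Promoters were read from RefSeq sequences of build GRCm38.p6, from 250 bases before to 50 after each start. Of the 35 members, 28 had an entry, with 37 promoters among them. Sqle, Fdft1, Fdps, Stard4, Scd1, Scd2 and Fads1 had none. The sterol regulatory element core, searched as exact matches of TCACNCCAC on both strands, is a motif bound by Srebf1 and Srebf2. It was found in 1 of the 37 promoters, that of Hmgcs1, and in 1.24% of all 32851 promoters of the same length. The stretch around it, at chr13:119690204-119690233 (+), with the motif in capitals starting 137 bases before the start, reads as follows.
Hmgcs1: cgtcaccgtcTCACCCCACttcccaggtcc

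CCAAT, the box bound by the partner factor NF-Y, was in 64.9% of the members' promoters against 37.4% of all, and GGGCGG, the GC box bound by Sp factors, in 75.7% against 35.7%. CACGTG, an E-box, was in 18.9% against 7.15%, in the promoters of Scap, Insig1, Hsd17b7, Sc5d, Dhcr7 and Elovl5. These are counts of letters in a short window, some genes have several promoters, and no factor's binding was measured.

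Other genes of lipid metabolism that are no members were read from a list of 48 by their known role, of which 47 were in the table and 41 were tested in RNA. With LPS, 6 were called higher and 10 lower, beside 20.2% and 21.7% of all genes. The cholesterol exporter Abca1 rose (2.74 ± 0.14, FDR = 5.33e-09), the lysosomal sterol carrier Npc2 rose (1.57 ± 0.13, FDR = 4.9e-07), and the phosphatidate phosphatase Lpin1 fell (−3.24 ± 0.52, FDR = 0.000174). For LPS+TM7nox against LPS, 3 were called higher and 4 lower, beside 7.37% and 6.4% of all genes: Me1, a source of NADPH (1.44 ± 0.17, FDR = 9.01e-05), the sterol transporter Npc1 (0.85 ± 0.11, FDR = 0.000247) and Dhdds (0.67 ± 0.14, FDR = 0.00593) were higher, and Abca1 (−2.48 ± 0.14, FDR = 1.92e-07), Mylip, Acsl1 and Lbr were lower. In recovery over RNA in DMSO cells, 10 of 43 tested were called higher and 18 lower, beside 37% and 33.4% of all genes. The highest were Elovl4 (5.35 ± 1.35, the widest SE of those named), Ggps1, which extends farnesyl diphosphate (3.55 ± 0.30), Hacd3 (3.43 ± 0.16), Soat1, which esterifies cholesterol (3.24 ± 0.26), and the sterol reductase Lbr (3.05 ± 0.18). The filter of this fit can pass a gene on its RIP libraries alone, and a ratio over few RNA counts is uncertain.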

How the data were processed

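RNA was measured in 12 total RNA, 12 anti-HuR RIP and 3 IgG libraries of RAW264.7 cells. Per the labels' protocols, each library started from 7 ng of RNA with a SMART-Seq Stranded kit. The authors deposited 1 table of raw counts, whole numbers of reads per gene and library with no normalization. Per the submitters' processing notes, FastQC 0.11.9, STAR, HTSeq, DESeq2 and the build GRCm39 were named, with no role given. The step each tool served, the annotation release and the strand setting are not given in the sources. No value column was left unmapped.

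Members, roles and lists were chosen with earlier results of these data known. Counts were fitted with edgeR 4.0.16 in R 4.3.3: TMM factors, filterByExpr (min.count 10) as the filter on low counts, the quasi-likelihood F test, two-sided, and Benjamini-Hochberg adjustment over all genes tested. One fit each was made for the 12 RNA libraries, the 12 RIP libraries, the 24 RNA and RIP libraries (RIP over RNA, and interactions), and the 15 RIP and IgG libraries with treatment as a covariate. All 35 members passed the filter in each of the 12 comparisons. SE is the log2 fold change divided by the square root of F. The scripts were tested on simulated data. Per-library values are given for up to 6 members with the largest called change in RNA for each of LPS against DMSO (6) and LPS+TM7nox against LPS (4), for the 3 largest in each of the same comparisons of RIP, for the 2 highest and 2 lowest in RIP over RNA, and for the SREBP system. Values of Acat2, Scd1, Msmo1 and other members outside this rule were added after they were seen.

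Replicate numbers pair the samples. Deviations from the group means correlated between 0.269 and 0.597 for same-numbered RNA libraries (12 pairs) and between 0.294 and 0.645 for RIP (12 pairs), with medians of −0.149 and −0.207 for different numbers. No 2 replicates of a group agreed within sampling noise (chi-square per gene of 38.0 to 213 over 36 pairs). Alternatives were DESeq2 1.42.0, RLE and upper-quartile factors, no filter, the replicate number as a block, replicates 1 and 2 or 3 and 4 alone, and leaving out each library in turn. Gene models and 3′ UTRs are those of GENCODE M39 on GRCm39, and near-identical copies are blastn 2.17.0 matches of at least 200 bases. PCR copies are counted as reads, since no molecular identifiers are stated. Some 3′ UTR stretches are not reported here.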

Additional observations from a re-analysis of the deposited data

Results flagged for a closer look

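For the 18 members chosen by the rule for values by library, the highest and lowest of the 4 libraries were compared with the others in 108 groups of RNA and RIP values, and 4 values stood apart, where chance gives about 1 in 20. In RNA of DMSO cells, replicate 1 held 1.27 CPM of Insig2, against 5.66 to 6.11 CPM in the others. The same library held 18 CPM of Fdft1, against 28.6 to 30.6 CPM. It is the shallowest library. In RNA with LPS+TM7nox, replicate 1 held 8.31 CPM of Dhcr7, against 5.52 to 5.98 CPM. In RIP of DMSO cells, replicate 3 held 6.43 CPM of Insig2, against 4.97 to 5.13 CPM.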

How the results depend on the processing

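The number of members called moved by more than 1.5 times in the following fits. With the replicate block it was 12 for RNA, LPS+TM7nox against LPS (4 without it), 15 for RIP, LPS against DMSO (9) and 16 for RIP, LPS+TM7nox against LPS (7). DESeq2 gave 10 and no filter on low counts gave 8 for RNA, LPS+TM7nox against LPS. The 8 were all lower, beside 2.91% lower and 3.1% higher of the 30529 genes tested without the filter. Replicates 1 and 2 alone gave 5 for RNA, LPS against DMSO, 0 for RNA, LPS+TM7nox against LPS, 4 for RNA, LPS+TM7nox against DMSO (24), 0 for RIP, LPS+TM7nox against LPS and 8 for RIP, LPS+TM7nox against DMSO (15). Replicates 3 and 4 alone gave 22 and 18 for the first 2 of these and 2 for RIP, LPS+TM7nox against LPS. The shares of all genes moved too: called lower were 4.97%, 0.561% and 7.48% for the 3 RNA comparisons and 2.29% and 15.1% for the 2 RIP comparisons with replicates 1 and 2, and 29.3%, 13.5% and 3.51% with replicates 3 and 4. The cause was not tested, beyond the smaller number of libraries and the shallow RNA DMSO replicate 1 among replicates 1 and 2. Leaving out 1 library gave 9 to 20, 2 to 5 and 18 to 28 for the 3 RNA comparisons, and 8 to 11, 1 to 7 and 11 to 15 for the same comparisons in RIP. It gave 28 to 29, 22 to 26 and 26 to 30 for RIP over RNA in DMSO, LPS and LPS+TM7nox, 25 to 29 for anti-HuR against IgG, and 0 for both interactions. Over single members, 6595 alternative values kept their side of the threshold. These include any change of sign where neither fit called the member, which was not counted apart. A call was lost in 273 and gained in 166. In 1, a called member reversed its sign: Fads2 in RIP, LPS+TM7nox against DMSO, at −0.53 with all libraries and 0.011 (FDR = 0.974) with replicates 1 and 2 alone. Upper-quartile scaling moved the median of all genes in RIP, LPS against DMSO, from 0.00 to −0.25 and in RIP, LPS+TM7nox against DMSO, from 0.00 to −0.24, and the share of all calls that were higher from 52.6% to 35.6% and from 52.1% to 37.1%. The block added 37 calls over the treatment and recovery comparisons of RNA and RIP, each named or counted above, and changed no other call. Depth limits the least abundant members, Fdps, Tm7sf2 and Acss2, and RNA DMSO replicate 1.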
